A study of Mus musculus with 8 samples.

Results

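Nodal, Lefty1, Lefty2, Tdgf1, Foxh1 and Cer1 were followed across genotypes, stages and cell groups of chimaeric mouse embryos. They were taken by symbol as the core of the Nodal and Lefty pathway, and all 6 were found among the 55422 features counted. Cells came from embryos made by injecting C57BL/6J host blastocysts with 1 line of Tet-TKO embryonic stem (ES) cells, which carry an H2B-tdTomato label and were made to lack all TET enzymes, the dioxygenases that start active DNA demethylation. Because the background of these ES cells is mixed (C57BL/6J and 129Sv) and that of the host is C57BL/6J alone, strain and genotype cannot be told apart. Blastocysts were carried by pseudo-pregnant CD1 females, and the embryos were collected at E7.5 or E8.5, pooled and sorted. The tdTomato+ cells form the Tet-TKO group and the tdTomato- cells, which include the extraembryonic tissue of the host, form the WT host group. There were 8 libraries, of which E7.5 gave 1 per genotype and E8.5 gave 4 for Tet-TKO and 2 for WT host. The labels do not say that libraries of a group are separate pools of embryos, so the p-values measure only the spread between these libraries.

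Nodal is a secreted TGF-β family ligand that drives mesoderm and endoderm formation in the primitive streak and later sets left and right in the lateral plate mesoderm. It acts on activin receptors together with an EGF-CFC coreceptor, of which Tdgf1 (Cripto) is one, and its SMAD signal is brought to DNA by the transcription factor Foxh1. Lefty1, Lefty2 and Cer1 encode secreted antagonists. Lefty proteins are themselves targets of Nodal signalling, which closes a negative feedback loop, and Cer1 (Cerberus-like) is made by anterior endoderm and young paraxial mesoderm.

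In GRCm38 Nodal lies at chr10:61417972-61425338 on the plus strand, Tdgf1 at chr9:110939603-110946158 on the minus strand, Foxh1 at chr15:76668225-76669948 on the minus strand and Cer1 at chr4:82881751-82885148 on the minus strand. Lefty2 (chr1:180893108-180899103) and Lefty1 (chr1:180935022-180938400) are neighbours on the plus strand, 35.9 kb apart. As they are close copies, the last 60 coding bases of each, stop codon included, are shown here to make visible how alike the pair is. They lie at chr1:180937916-180937975 for Lefty1 and chr1:180897754-180897813 for Lefty2, and capitals mark the 7 bases that differ, while 53 are the same.
Lefty1: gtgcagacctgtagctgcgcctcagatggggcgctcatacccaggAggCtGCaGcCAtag
Lefty2: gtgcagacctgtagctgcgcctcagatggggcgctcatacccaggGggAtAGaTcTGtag
Of all 50-base windows of the Lefty1 transcript, 17.9% occur in Lefty2. In the last 400 bases, where a 3′ library is read, 0 of 351 windows were shared, so reads from that end can be given to 1 of the pair. The same held for Tdgf1 and its pseudogenes Tdgf1-ps1 and Tdgf1-ps2, which received 11 and 6 UMIs against 24081 for Tdgf1.

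The genotype concerns DNA demethylation, so the 250 bases before the start site were read for the 3 members with an entry among RefSeq promoters of GRCm38.p6, namely Nodal, Tdgf1 and Cer1. Capitals mark CG pairs, the sites where methylation is set.
Nodal (chr10:61417722-61417971, plus): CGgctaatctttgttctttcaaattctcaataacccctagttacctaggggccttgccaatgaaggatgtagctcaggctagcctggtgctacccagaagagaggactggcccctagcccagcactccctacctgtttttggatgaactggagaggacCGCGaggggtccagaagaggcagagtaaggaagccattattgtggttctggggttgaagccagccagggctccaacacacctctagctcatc
Tdgf1 (chr9:110946159-110946408, minus): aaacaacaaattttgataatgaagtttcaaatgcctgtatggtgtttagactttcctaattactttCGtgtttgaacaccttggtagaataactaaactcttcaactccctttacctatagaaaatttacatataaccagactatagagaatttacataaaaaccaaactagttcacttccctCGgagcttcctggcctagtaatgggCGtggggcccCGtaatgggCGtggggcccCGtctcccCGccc
Cer1 (chr4:82885152-82885401, minus): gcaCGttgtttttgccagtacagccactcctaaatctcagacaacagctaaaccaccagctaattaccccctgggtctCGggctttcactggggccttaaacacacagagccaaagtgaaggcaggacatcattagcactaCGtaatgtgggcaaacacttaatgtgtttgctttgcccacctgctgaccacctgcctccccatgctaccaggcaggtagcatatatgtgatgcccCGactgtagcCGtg
Nodal held 3 CG pairs in this window, Cer1 5 and Tdgf1 7, beside a median of 6 over 32851 promoters. On either strand the letters AATNCACA, the core bound by FOXH1, were in none of the 3 windows and in 3.18% of all promoters. The SMAD letters CAGAC were found 113 bases before the start of Tdgf1 and 213 before that of Cer1, and in 42.2% of promoters. TATAAA was in none of the 3 and in 12.4% of promoters. No methylation was measured in these libraries.

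Between 1012 and 9552 cells were kept per library, with medians of 12176 to 68704 UMIs per cell and totals of 65082949 to 136773098 UMIs. The tdTomato transcript was at 71.5 to 144 CPM (UMIs of a gene per 1000000 UMIs counted) in the 5 Tet-TKO libraries and at 0.444 to 0.938 in the 3 WT host libraries. Tet1 was at 13.4 CPM in Tet-TKO and 27.6 in WT host cells at E7.5, and at 9.93 to 20.9 against 20.4 and 22.6 at E8.5, where Tet2 was above both host libraries in all 4 Tet-TKO libraries. Tet3 at E8.5 was at 23.5, 22.45, 37.5 and 36.4 CPM in Tet-TKO libraries 1 to 4 and at 23.1 and 23.2 in the host. A 3′ count can lie outside the deleted part of a gene and then checks nothing. No pair of libraries shared more than 28 cell barcodes, and in no pair was the share of the smaller library above 0.434%. Cells were clustered within each stage without using the pathway genes, and a cluster was called "X-like" only from listed markers. Clusters that met no list keep a number and are described by their leading genes.

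At E7.5 the members differed in the cell groups that held them. Values are CPM in the UMIs summed over a cell group, with exact 95% Poisson intervals that cover counting error only. As there is 1 library per genotype, no test of genotype is possible, and a ratio past a log2 of 1 is only a difference in level between a pair of libraries. In WT host cells Lefty2 was at 382 CPM (348 to 419) in primitive streak-like cells, at 261 (230 to 296) in cluster 7, led by the nascent mesoderm genes Mesp1 and Dll3, at 169 (153 to 186) in presomitic mesoderm-like cells and at 121 (111 to 130) in somitic and paraxial mesoderm-like cells. These neighbours in the order have intervals that do not meet, whereas cluster 18, led by the heart field genes Mef2c and Myl7, had 13.6 CPM and epiblast-like cells 4.57. Host Tdgf1 had a like order of streak-like cells (605 CPM) and cluster 7 (493), but stayed at 107 in epiblast-like cells. Host Nodal was at 90.9 CPM (68.3 to 119) in 62 node and notochord-like cells, 32.3 (28.5 to 36.4) in visceral endoderm-like cells, 22.1 (17.5 to 27.4) in epiblast-like cells and 11.6 (6.33 to 19.4) in streak-like cells, and the intervals of the last pair meet. Host Cer1 was at 381 CPM in definitive endoderm and gut-like cells, 115 in streak-like, 99.4 in visceral endoderm-like and 66.9 in somitic and paraxial mesoderm-like cells, with meeting intervals for streak and visceral endoderm. Host Lefty1 was at 21.5 CPM (14.0 to 31.5) in streak-like cells and 8.56 (6.67 to 10.8) in visceral endoderm-like cells, which joined cluster 24 at 26.2 CPM and cluster 8 at 0.358. Foxh1 never passed 7.44 CPM in these groups and had no clear site.

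**Figure D1:**
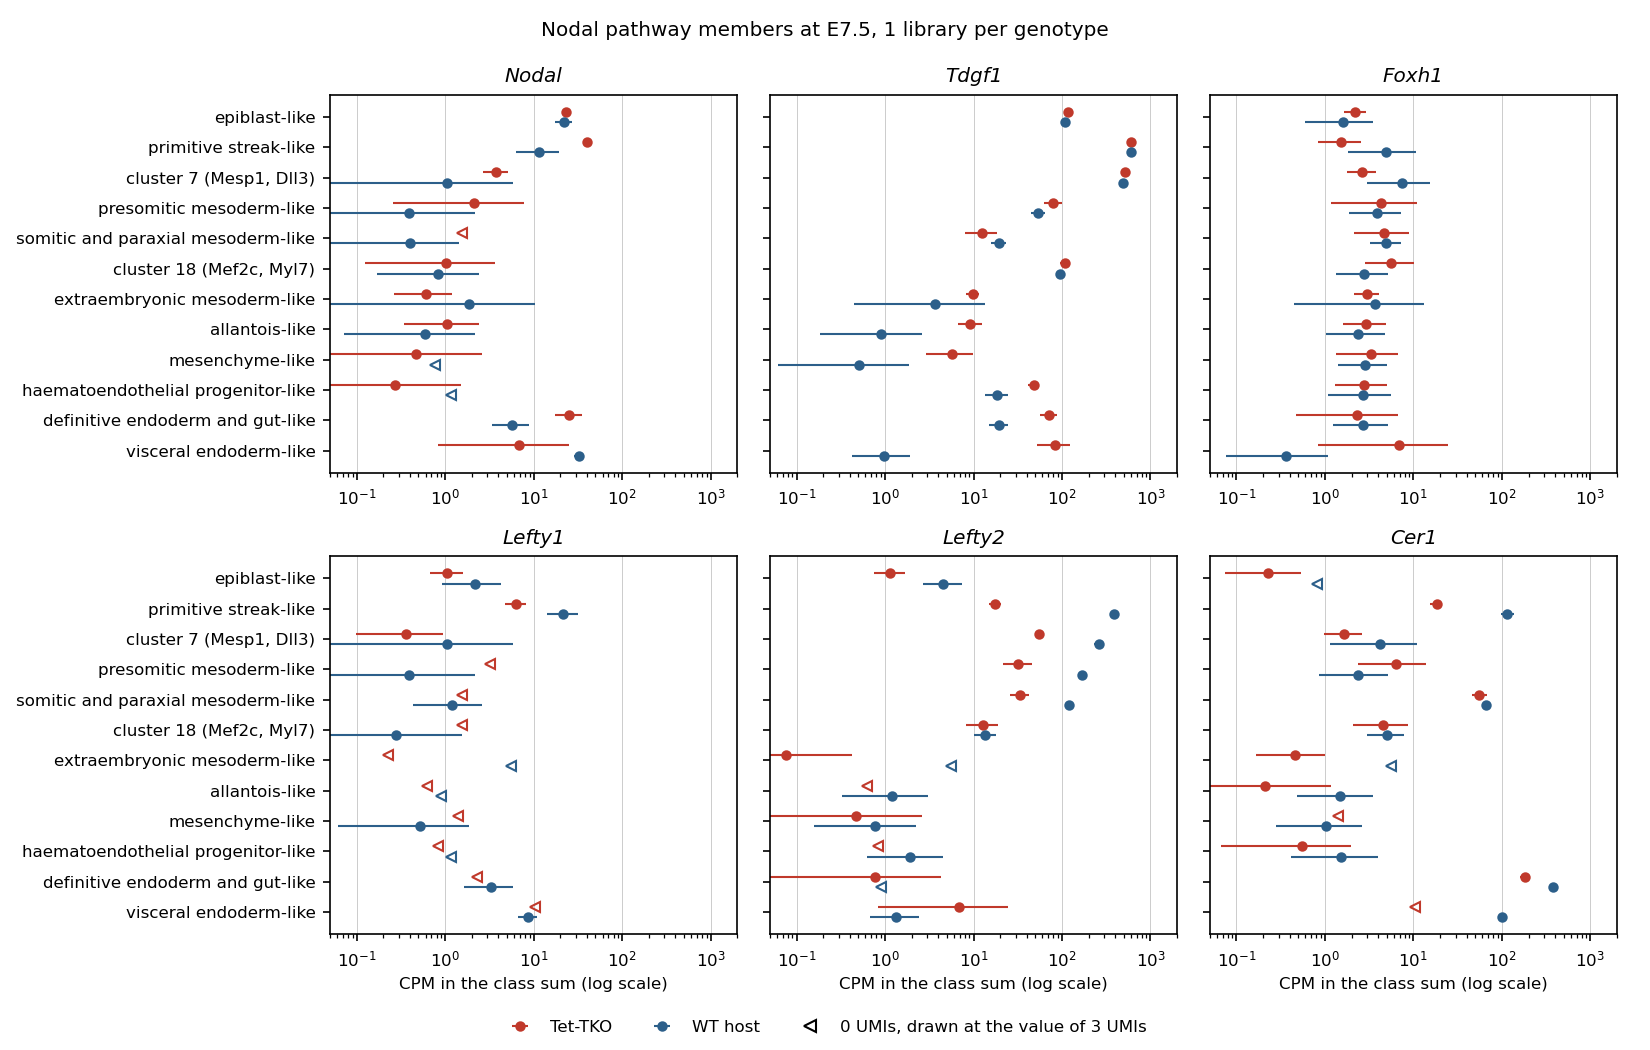
CPM (log scale) of the 6 members in 12 cell groups at E7.5, with Tet-TKO cells in red and WT host cells in blue. Points are the 1 library of each genotype, lines are exact 95% Poisson intervals, and open triangles stand for 0 UMIs, drawn at the value of 3 UMIs. The Lefty2 points of streak-like cells lie far apart, at 17.7 and 382 CPM, whereas the Tdgf1 points of streak-like cells, at 601 and 605 CPM, lie on each other.

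Over the 12 epiblast, streak, mesoderm and endoderm groups with 30 or more cells of both genotypes, 38 pairs of a member and a group had 20 or more UMIs. Of these, 14 were lower in Tet-TKO by a log2 ratio of at least 1 and 9 were higher. Over all genes in the same groups 5.26% were lower and 3.50% higher by that size. The minimum of 20 UMIs favours pairs that are high in 1 of the libraries. Pairs past that size include Nodal, Cer1 and Tdgf1 in visceral endoderm-like cells, with 58 Tet-TKO cells at a median of 4151 UMIs. Others had intervals that included 0, namely Nodal (-0.74 to 7.15) and Cer1 (-2.97 to 0.65) in cluster 7 and Foxh1 in cluster 18 (-0.36 to 2.41). So did Tdgf1 in extraembryonic mesoderm-like cells (-0.47 to 4.47) and Lefty1 in epiblast-like cells (-2.24 to 0.35). In these 12 groups Lefty2 (5 of 6 pairs), Lefty1 (2 of 3) and Cer1 (4 of 6) were lower in Tet-TKO where they passed that size, and Tdgf1 (5 of 11) was higher. Nodal had 3 higher and 1 lower of 5, and Foxh1 1 higher and 2 lower of 7. Within the 12 single clusters of these groups that held 30 or more cells of both genotypes, 9 of 34 pairs were lower and 9 higher, against 5.14% and 3.30% of all genes. There Lefty2 was again lower in 5 of 6 and Tdgf1 higher in 5 of 11, Cer1 was lower in 3 of 6, and the 1 pair of Lefty1 did not pass that size, so that lower pairs did not outnumber higher ones within clusters. Another 4 groups had 30 or more cells of both genotypes, namely primordial germ cell-like and surface ectoderm-like cells and E7.5 clusters 2 and 4, and with them 15 of 50 pairs were lower and 17 higher, against 5.08% and 3.73% of all genes. E7.5 cluster 2, whose 661 Tet-TKO and 36 host cells met no marker list and had medians of 8170 and 26581 UMIs, had Lefty2 lower in Tet-TKO (6.66 against 23.7 CPM) but Lefty1 (6.06 against 2.26 CPM, 41 and 2 UMIs) and Cer1 (16.1 against 5.64 CPM, 109 and 5 UMIs) higher.

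Among the antagonists, Lefty2 differed most in the streak. In primitive streak-like cells it was at 17.7 CPM in Tet-TKO (164 UMIs, 411 cells) and at 382 CPM in WT host cells (462 UMIs, 82 cells), a log2 ratio of -4.43 (95% interval -4.70 to -4.17). In that group 9.44% of all genes were past a log2 of 1 in either direction. Cluster 7 had 55.4 against 261 CPM (-2.24, -2.45 to -2.02), in a group where 9.07% of genes were past that size. Presomitic mesoderm-like cells had 31.9 against 169 CPM (-2.40, -2.99 to -1.87). In somitic and paraxial mesoderm-like cells, where 6.61% of genes were past it, Lefty2 was at 33.4 against 121 CPM (-1.85, -2.25 to -1.48). Thus the Tet-TKO value lay below the host value in the streak-like group and in each of these 3 mesodermal groups. In cluster 18 the difference was not detectable, with 12.8 against 13.6 CPM (log2 ratio -0.091, -0.85 to 0.63), but this value was between -1.35 and -2.06 with coarser clusters, without marked doublets, with cells matched on tdTomato or with thinned cells. Epiblast-like cells had little Lefty2, 1.15 against 4.57 CPM.

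The streak-like group joins 2 clusters of unlike make-up, so Lefty2 was also compared within each. Cluster 22, led by Psors1c2, Nanog and T, held 247 Tet-TKO and 17 WT host cells, and its Tet-TKO cells had 1.62 CPM of Lefty2. Cluster 26, led by Mesp1, Sp5 and Foxa2, held 164 Tet-TKO and 65 host cells. Within cluster 26 Lefty2 was at 41.9 against 456 CPM, a log2 ratio of -3.44 (-3.72 to -3.18), so the gap was narrower than in the whole group. There the summed streak markers were at a log2 ratio of 0.35, the endoderm markers at 0.32, the nascent mesoderm markers at -0.025 and the epiblast markers at -0.065. Lower in Tet-TKO were the summed presomitic markers, at -0.86, and the somitic markers, at -1.99 (6.22 against 24.7 CPM). In cluster 7 the presomitic and somitic markers were at -0.31 and -0.56 and the nascent mesoderm markers at 0.16. In cluster 25 (presomitic mesoderm-like) these were at -0.32, -0.17 and -0.13. The part of these marker shifts in the Lefty2 differences was not tested.

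The share of cells with a Lefty2 UMI differed as the level did. With every cell thinned to 5000 UMIs, Lefty2 was seen in 4.96% of 403 Tet-TKO (exact 95% binomial interval 3.06 to 7.56) and 37.5% of 80 host streak-like cells (26.9 to 49.0). Without thinning the shares were 9.98% and 48.8%, at medians of 22402 and 15130 UMIs. These are shares of the whole streak-like group. Its Tet-TKO cells include the 247 cells of cluster 22, at 1.62 CPM of Lefty2, while 65 of its 82 host cells are in cluster 26. No share within cluster 26 is given, and the part of cluster make-up in this gap was not tested. In extraembryonic ectoderm-like host cells, taken as the background, the thinned share was 0.549% (unthinned 1.66%, median 16390 UMIs). Most of it came from 1 cluster, cluster 28, where Lefty2 was at 16.3 CPM and in 5.26% of 171 thinned cells, against 0.0606% of 1649 cells in the other clusters of that type. Thinned shares were 16.8% and 36.1% in cluster 7 and 7.14% and 29.9% in presomitic mesoderm-like cells, a group with only 42 Tet-TKO cells before thinning. In all 3 groups the share of cells with Lefty2 was lower in Tet-TKO. As values without intervals, 5 of the 6 shares were above that of cluster 28. The exception was the streak-like Tet-TKO share, which lay above the background of the other clusters only.

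Lefty1, whose later site is the left prospective floor plate, was sparse. Streak-like cells had 6.27 CPM in Tet-TKO (58 UMIs) and 21.5 CPM in WT host (26 UMIs), a log2 ratio of -1.78 (-2.47 to -1.05). Within cluster 26 the values were 13.5 and 25.7 CPM (-0.92, -1.64 to -0.18), so part of the gap in the whole group lay between clusters. Epiblast-like cells had 1.06 against 2.15 CPM (-1.02, -2.24 to 0.35), which counting error alone can give. Lefty1 had 0 UMIs in Tet-TKO visceral endoderm-like cells, a level under 10.3 CPM at 3 UMIs, so the host value of 8.56 CPM could not be told from it.

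Cer1 was lower in Tet-TKO in gut-like and streak-like cells and near equal in paraxial mesoderm. Definitive endoderm and gut-like cells had 183 CPM (238 UMIs, 68 cells) against 381 CPM (1275 UMIs, 254 cells), a log2 ratio of -1.06 (-1.27 to -0.86), in a group where 7.55% of all genes were past a log2 of 1. Streak-like cells had 18.3 against 115 CPM (-2.65, -2.99 to -2.32), and within cluster 26 the values were 45.5 and 136 (-1.58, -1.92 to -1.25). Somitic and paraxial mesoderm-like cells had 55.8 against 66.9 CPM (-0.26, -0.59 to 0.057). In visceral endoderm-like cells Cer1 had 813 UMIs in the host and 0 in Tet-TKO, at least 9.64-fold lower against a floor of 3 UMIs. That group held 58 Tet-TKO cells with a median of 4151 UMIs, against 20741 in their library, and 1 of its clusters, cluster 24, in which host Nodal was at 84.1 and host Cer1 at 279 CPM, held only 2 Tet-TKO cells. Within cluster 8, the visceral endoderm-like cluster with 56 Tet-TKO and 429 host cells, Cer1 had 0 and 90 UMIs, 1.48-fold lower against the same floor, which did not pass a log2 of 1. The upper end of the interval there was -0.24.

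Nodal itself was near equal over all epiblast-like cells and higher in Tet-TKO streak-like cells. Epiblast-like cells had 23.1 CPM in Tet-TKO (502 UMIs, 877 cells) and 22.1 CPM in WT host (82 UMIs, 262 cells), a log2 ratio of 0.066 (-0.27 to 0.42), while 9.09% of genes were past a log2 of 1 there. Over 5 other processing choices this ratio ranged from 0.030 to 1.58, so the near equality depended on the processing. Within cluster 11, the epiblast-like cluster that held similar numbers of both genotypes (203 and 230 cells), the values were 36.5 and 23.3 CPM (0.65, 0.26 to 1.04). Streak-like cells had 39.9 against 11.6 CPM (369 and 14 UMIs), a log2 ratio of 1.78 (1.02 to 2.67), and cluster 26 had 24.4 against 10.9 (1.16, 0.26 to 2.22). Definitive endoderm and gut-like cells had 25.4 against 5.68 CPM (33 and 19 UMIs; 2.16, 1.30 to 3.05). In visceral endoderm-like cells Nodal was lower in Tet-TKO, at 6.88 against 32.3 CPM (2 and 264 UMIs; -2.23, -5.28 to -0.36), but most host UMIs were in cluster 24, and within cluster 8 there were 0 and 46 UMIs, where a level of 3 UMIs, 10.9 CPM, is above the host value of 8.23. In Tet-TKO the streak-like group thus lay above the epiblast-like group, but cluster 22, nearly all Tet-TKO, was at 50.2 CPM. Streak-like cluster 26 was below epiblast-like cluster 11 in both genotypes, though the host intervals meet (5.42 to 19.4 and 18.4 to 29.2 CPM). In Tet-TKO cluster 26 was above the other epiblast-like clusters, 16 (19.85 CPM) and 17 (16.7 CPM). Shares of streak-like cells with a Nodal UMI after thinning were 16.1% (12.7 to 20.1) in Tet-TKO and 5.00% (1.38 to 12.3) in the host.

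**Figure D2:**
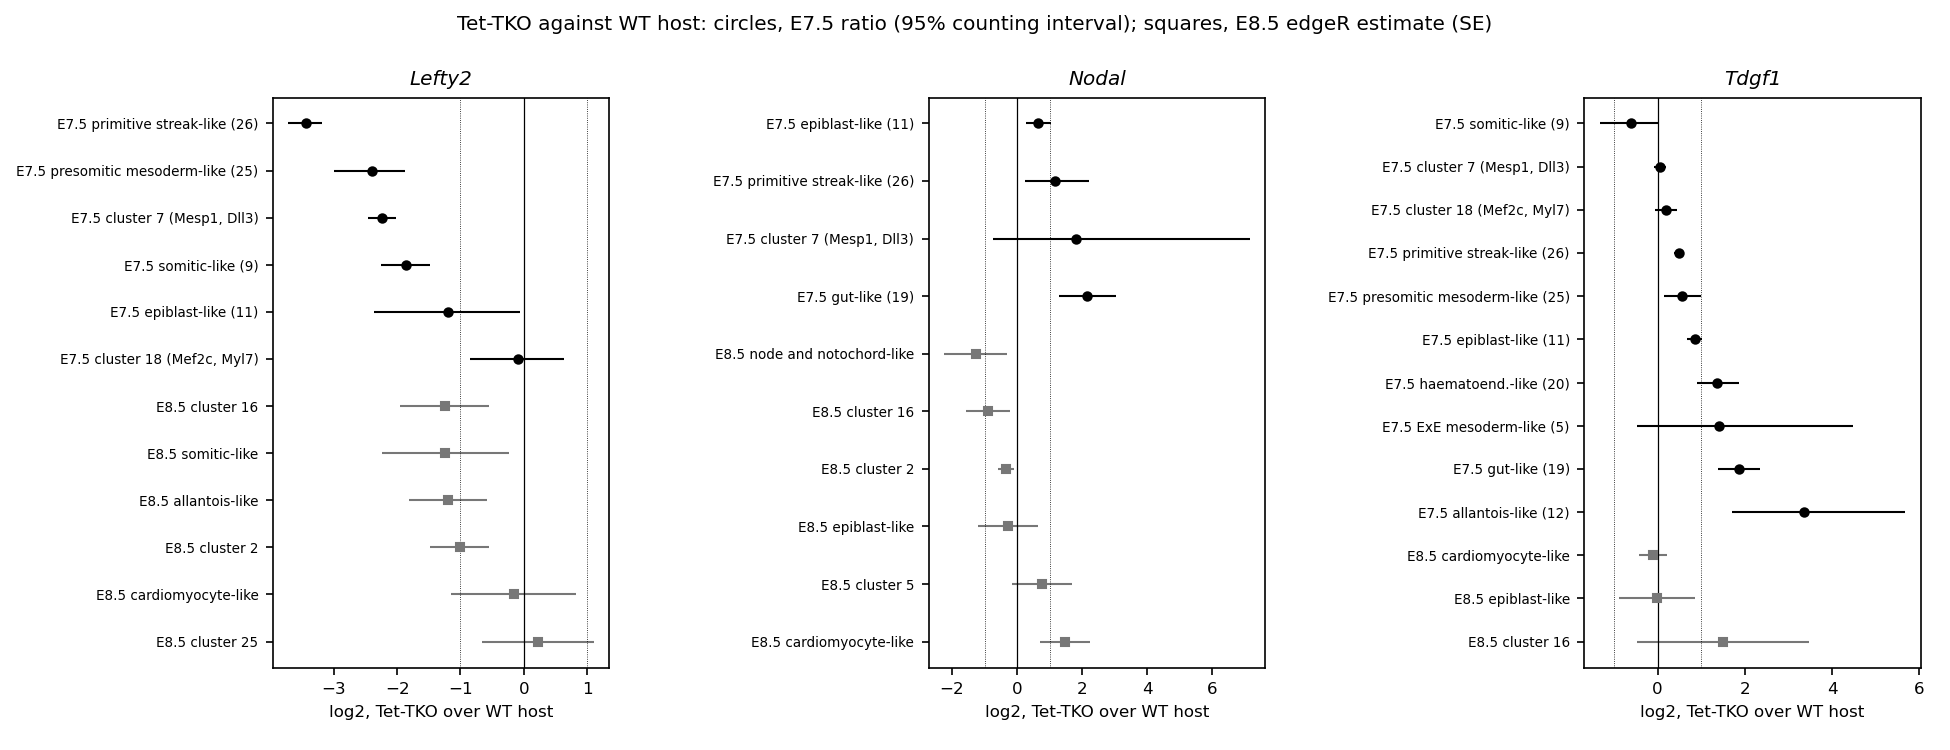
Log2 of Tet-TKO over WT host for Lefty2, Nodal and Tdgf1. Circles are E7.5 ratios within clusters that hold both genotypes (cluster number in brackets) with 95% counting intervals, squares are E8.5 edgeR estimates with 1 SE, and dotted lines mark -1 and 1. Lefty2 lies left of 0 in each E7.5 cluster shown, from -3.44 in cluster 26 to -0.091 in cluster 18, and Nodal lies right of 0 in each E7.5 cluster shown. On few UMIs (2 in Tet-TKO and 10 in the host) the Lefty2 ratio of cluster 8 was 2.02.

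Tdgf1, the coreceptor, was the most abundant member in streak-like cells, epiblast-like cells and cluster 7, though not in every group. In host gut-like cells, for example, Cer1 was at 381 and Tdgf1 at 19.4 CPM. Tdgf1 was near equal or higher in Tet-TKO in most groups. Its level in streak-like cells was 601 CPM in Tet-TKO (5565 UMIs) and 605 CPM in WT host (731 UMIs), a log2 ratio of -0.0076 (-0.12 to 0.11). Cluster 7 had 510 against 493 CPM (0.049) and epiblast-like cells 116 against 107 (0.11). Over 5 other processing choices the epiblast-like ratio ranged from 0.0050 to 2.01. Within single clusters of the streak-like and epiblast-like groups Tdgf1 was higher in Tet-TKO, at 956 against 681 CPM in streak-like cluster 26 (0.49, 0.37 to 0.61) and at 208 against 115 CPM in epiblast-like cluster 11 (0.85, 0.68 to 1.02). The near-equal values of the 2 whole groups therefore rested on clusters that were nearly all Tet-TKO. Somitic and paraxial mesoderm-like cells had less in Tet-TKO, 12.5 against 19.2 CPM, with an interval that reached 0 (-0.62, -1.33 to 0.041). After thinning a Tdgf1 UMI was seen in 79.9% of Tet-TKO and 83.8% of host streak-like cells, and in 0.604% of extraembryonic ectoderm-like host cells (4.68% in cluster 28 and 0.182% in the others). Outside the streak Tdgf1 was higher in Tet-TKO in several groups, at 47.7 against 18.5 CPM in haematoendothelial progenitor-like cells (1.37, 0.90 to 1.86), 70.7 against 19.4 in definitive endoderm and gut-like cells (1.86, 1.39 to 2.34) and 9.18 against 0.899 in allantois-like cells (3.35, 1.71 to 5.68). The largest ratio was in visceral endoderm-like cells, at 82.5 against 0.978 CPM (24 and 8 UMIs; 6.40, 5.20 to 7.76). The 58 Tet-TKO cells of that group thus held a gene that its host cells nearly lacked, and whether they are the same cell type was not tested. The whole E7.5 libraries had 187 against 27.2 CPM, but epiblast-like and streak-like cells made up 15.9% and 7.46% of Tet-TKO and 3.67% and 1.15% of WT host cells. Foxh1 had at most 48 UMIs in any of these sums, and its values in cluster 7 (2.65 against 7.44 CPM, -2.71 to -0.055) and in streak-like cells (1.51 against 4.96, -3.18 to -0.047) had intervals that nearly reached 0.

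A further 24 measured genes of a Nodal pathway list (further ligands, processing enzymes, receptors, SMADs, antagonists and targets) were taken next. In streak-like cells 20 had 20 or more UMIs, of which 1 was lower and 1 higher in Tet-TKO by a log2 of at least 1, a share near the 9.44% of all genes. The lower one was Lhx1, a LIM homeobox target of Nodal, at 189 against 430 CPM (-1.19, -1.33 to -1.04), and the higher one was the ligand Gdf3, at 2.16 against 0.827 CPM with 1 host UMI (1.39, -1.26 to 6.76). The targets Eomes (242 against 257 CPM) and Mixl1 (215 against 226) were near equal there. In epiblast-like cells 3 of 21 were higher, namely Gdf3 (13.8 against 1.35 CPM, log2 ratio 3.36), the second EGF-CFC coreceptor Cfc1 (6.03 against 2.42) and Lhx1 (2.35 against 0.538), and Pcsk6, a processing enzyme, was lower (1.06 against 4.04), beside 9.09% of all genes. In somitic and paraxial mesoderm-like cells 1 of 15 was lower, the activin antagonist Fst at 14.1 against 51.1 CPM (-1.86, -2.49 to -1.28), a share near the 6.61% of all genes. In haematoendothelial progenitor-like cells 4 of 18 were higher, Eomes (37.0 against 10.8 CPM), Mixl1 (35.4 against 6.93), Gsc and Pmepa1, and Lhx1 and Furin were lower, where 6.57% of all genes were past that size in either direction. In presomitic mesoderm-like cells Eomes was higher (34.1 against 11.4 CPM) and Cfc1 lower (4.26 against 10.2 CPM) among 14 genes, beside 6.67% of all genes. In allantois-like cells 3 of 19 were higher, Eomes (8.34 against 2.40 CPM), Fst (36.3 against 14.1) and Gsc (8.97 against 3.60), beside 6.82% of all genes. The remaining mesoderm groups had 1 gene each at most. Smad3, a signal transducer, was higher in cluster 7 (3.83 against 1.06 CPM, 1 of 19 genes) and the type I receptor Acvr1b in extraembryonic mesoderm-like cells (5.17 against 1.85 CPM, 1 of 20, where 9.31% of all genes were past that size), both on 1 host UMI. Furin was lower in cluster 18 (6.64 against 19.2 CPM, 1 of 18, beside 5.96% of all genes). Of the endoderm groups, definitive endoderm and gut-like cells had 1 of 18 (Pmepa1, higher). Visceral endoderm-like cells had 5 of 19 lower and 4 higher, with Lhx1 at 13.8 against 80.5 CPM and Mixl1 at 134 against 6.36 CPM, in a group where 14.0% of all genes were lower and 6.03% higher by that size and whose genotypes differed in make-up as given for Cer1.

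At E8.5 the genotypes could be tested, and no member was called in any group. Over 35 cell groups 25 pairs of a member and a group passed the filter on low counts, 15 with a negative and 10 with a positive log2 fold change. With edgeR's quasi-likelihood test 0 of 25 reached an adjusted p of 0.01 with a log2 fold change of 1 either way, against 0.580% of all tests over these groups. At an unadjusted p under 0.05 there was 1 of 25, against 11.3% of all tests, and DESeq2 also called 0. The median log2 fold change was -0.099 over the 25 pairs and lay between -0.046 and 0.025 over all genes in each group. Whole libraries gave 0 of 6 members (0 at an unadjusted p under 0.05, and 0 with DESeq2), against 2.65% of all genes.

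Lefty2 had its highest E8.5 level in cluster 2, led by Alx1 and Aldh1a2, the retinoic acid-making enzyme of trunk mesoderm. Its values in Tet-TKO libraries 1 to 4 were 6.82, 16, 19.2 and 34.5 CPM, and in WT host libraries 1 and 2 they were 28.1 and 47.2 CPM. The first 3 Tet-TKO libraries lay below both host libraries and the fourth lay between them. Means were 19.1 ± 11.5 (SD, n = 4) and 37.6 ± 13.6 (SD, n = 2). The log2 fold change was -1.02 (SE 0.47, edgeR unadjusted p = 0.0576, adjusted p = 0.468), and the difference was not called. With the library number as a block, on libraries 1 and 2 of each genotype alone, it was -1.67 and was called (edgeR adjusted p = 9.1e-06). The share of all genes called with the block is not given here, so this call has no background beside it. The study sorted both genotypes from pooled embryos, and its cell type proportions set each Tet-TKO sample against a matching WT host. The labels do not tie a Tet-TKO number to a host number, and the main fit leaves any pairing out. Of the 6 groups where Lefty2 passed the filter 5 had a negative estimate, with a median of -1.11. In allantois-like cells Lefty2 was at 1.23, 1.79, 0.397 and 0.269 CPM in Tet-TKO and 2.58 and 2.65 in WT host (log2 fold change -1.20, SE 0.61, edgeR adjusted p = 0.463). Cluster 16, led by Osr1, had means of 6.75 ± 5.40 (SD, n = 4) and 17.8 ± 10.6 (SD, n = 2), at an adjusted p of 0.727 by edgeR. In pharyngeal mesoderm-like cells Lefty2 failed the filter, with 1 UMI over the 4 Tet-TKO libraries (0 to 0.447 CPM) and 4 and 28 UMIs in the host libraries (1.58 and 8.26 CPM).

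**Figure D3:**
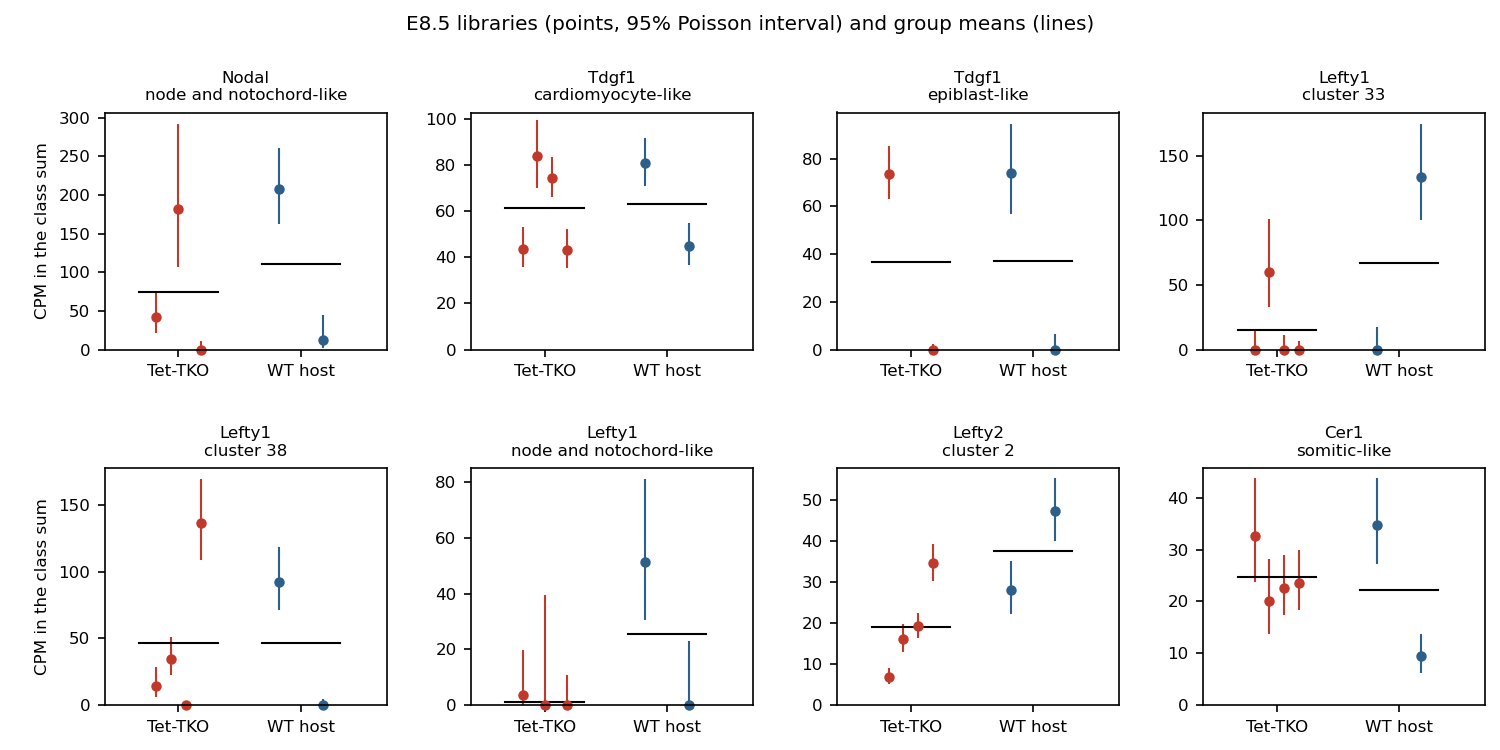
CPM per E8.5 library for each member in the cell groups where its mean reached 20 CPM in at least 1 genotype. Points are libraries in the order of their number with exact 95% Poisson intervals, and horizontal lines are group means. In each of the 8 panels the libraries of at least 1 genotype lie farther apart than the group means, and Tdgf1 in epiblast-like cells is at 73.8 and 74.0 CPM in the first library of each genotype and at 0 in the second.

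Nodal was highest in node and notochord-like cells at E8.5 too, and varied widely between libraries of a genotype. It was at 42.5, 182 and 0 CPM in Tet-TKO libraries 1 to 3 (library 4 held under 10 such cells) and at 208 and 12.5 CPM in the host. Means of 75 ± 95.5 (SD, n = 3) and 110 ± 138 (SD, n = 2) gave a log2 fold change of -1.27 (SE 0.97) and an adjusted p of 0.745 by edgeR. The whole range of Tet-TKO thus covered the lower host library. In cluster 2 Nodal was at 8.03 ± 1.57 (SD, n = 4) and 10.1 ± 0.438 CPM (SD, n = 2), a log2 fold change of -0.35 (SE 0.24, edgeR adjusted p = 0.637). The libraries did not overlap there, but the share of all genes without overlap is not given here. In cardiomyocyte-like cells Nodal was at 4.17 ± 2.85 (SD, n = 4) and 1.35 ± 0.0278 (SD, n = 2), at an adjusted p of 0.492 by edgeR.

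In E8.5 cluster 2 Lefty2 was found more often in cells with Nodal than in those without. In this cluster a Lefty2 UMI was held by 20% of 30, 38.89% of 18, 53.3% of 15 and 83.3% of 6 Nodal-positive cells in Tet-TKO libraries 1 to 4, and by 56.2% of 16 and 59.1% of 22 in the host libraries. Among cells without a Nodal UMI the shares were 4.57%, 4.22%, 1.05% and 2.35% in Tet-TKO and 6.40% and 9.36% in the host. The share was thus higher in Nodal-positive cells in 6 of 6 libraries. As a background, 0 of 149 and 0 of 53 extraembryonic ectoderm-like cells of the host libraries held a Lefty2 UMI, which allows shares of up to 2.01% and 5.66%. In node and notochord-like cells, where Nodal was highest at E8.5, 0 of 22 Nodal-positive cells held one. Nodal-positive cells were deeper in the 4 Tet-TKO libraries, for example at a median of 20510 against 17810 UMIs in library 1, and as deep or slightly shallower in the host libraries, at 14430 against 14430 and 12760 against 12840. Between libraries depth differed more, with medians of 13170, 38250 and 76450 UMIs for Nodal-positive cells of Tet-TKO libraries 2, 3 and 4. The shares of different libraries are therefore not at like depth. The part of depth in the shares was not tested. At E7.5 epiblast-like cells had the same order, with Lefty2 in 3.45% of 261 Nodal-positive and 1.46% of 616 other Tet-TKO cells, and in 10.9% of 55 and 4.35% of 207 host cells. In E7.5 streak-like cells, which join the Nodal-rich, Lefty2-poor cluster 22 and cluster 26, the order was the other way, with Lefty2 in 6.22% of 193 Nodal-positive and 13.3% of 218 other Tet-TKO cells, and in 22.2% of 9 and 52.1% of 73 host cells.

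**Figure D4:**
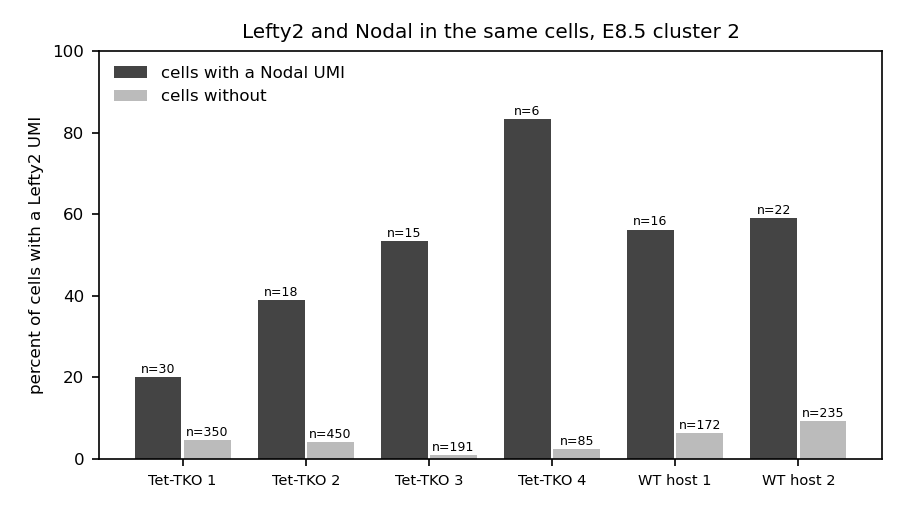
Percent of E8.5 cluster 2 cells with a Lefty2 UMI, in each library, for cells with (dark bars) and without (light bars) a Nodal UMI, with the number of cells above each bar. Dark bars range from 20% to 83.3% and light bars from 1.05% to 9.36%. Depth differs between the libraries, with Tet-TKO libraries 3 and 4 the deepest.

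Tdgf1 was highest in cardiomyocyte-like cells at E8.5. These had 43.8, 83.9, 74.4 and 43.3 CPM in Tet-TKO and 81.0 and 45.1 CPM in WT host, with means of 61.3 ± 20.9 (SD, n = 4) and 63.1 ± 25.4 (SD, n = 2). Both genotypes spanned the same range, and the log2 fold change was -0.099 (SE 0.32, edgeR adjusted p = 0.932). Epiblast-like cells split by library number and not by genotype, at 73.8 and 74.0 CPM in the first libraries and 0 in the second ones. This group had 10 or more cells in only 2 libraries of each genotype. Foxh1 never passed a mean of 4.35 CPM.

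Lefty1 at E8.5 was uneven between libraries. Cluster 38, led by Calca, Nkx2-9, Nkx6-1 and Foxa2, genes of the ventral neural tube, had 14.3, 34.8, 0 and 137 CPM in Tet-TKO and 92.6 and 0 in the host, a log2 fold change of -0.051 (SE 1.12, edgeR adjusted p = 0.992). Cluster 33, whose cells hold few UMIs and whose leading genes are ribosomal and mitochondrial RNA, had 54 UMIs in host library 2 and 14 in Tet-TKO library 2 and 0 in the other 4. In node and notochord-like cells there were 18 UMIs in host library 1 and 1 in the Tet-TKO libraries, too few for the filter. In each of these 3 groups at least 1 library of each genotype was at 0.

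Cer1 at E8.5 was highest in somitic and paraxial mesoderm-like cells. It was at 32.6, 20, 22.6 and 23.6 CPM in Tet-TKO and at 34.8 and 9.44 CPM in WT host, with means of 24.7 ± 5.46 (SD, n = 4) and 22.1 ± 17.9 (SD, n = 2). The Tet-TKO range lay inside the host range, and the log2 fold change was 0.19 (SE 0.42, edgeR adjusted p = 0.915). In definitive endoderm and gut-like cells it was at 15.5, 1.83, 0 and 0 CPM in Tet-TKO and at 5.71 and 0.635 CPM in WT host, so that 1 library set the level of each genotype (log2 fold change 0.86, SE 1.09, edgeR adjusted p = 0.834). With the library number as a block, on libraries 1 and 2 of each genotype alone, it was 1.56 and was called (edgeR adjusted p = 1.8e-05). That call too has no share of all genes beside it.

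Of the 24 further pathway genes 21 were tested in 467 gene and group pairs at E8.5, with a median log2 fold change of 0.032, 63 at an unadjusted p under 0.05 (13.5%, against 11.3%), and 2 calls (0.428%, against 0.580% of all tests), both lower in Tet-TKO. These shares were near those of all genes. Fst fell in mesenchyme-like cells from 31.1 ± 17.6 (SD, n = 2) to 3.32 ± 1.88 CPM (SD, n = 4), a log2 fold change of -3.20 (edgeR adjusted p = 0.00491), where 1.28% of all genes were called lower. It also fell in somitic and paraxial mesoderm-like cells, from 758 ± 102 (SD, n = 2) to 374 ± 24.3 CPM (SD, n = 4; log2 fold change -1.01, edgeR adjusted p = 0.00203; 0.190% called lower). The call in mesenchyme-like cells was lost when either host library was left out (log2 fold changes of -2.44 and -3.72), and Fst there was at -1.37 (edgeR adjusted p = 0.190) without marked doublets. The somitic Fst call was lost without either host library (-1.13 and -0.88) or without Tet-TKO library 4 (-0.9994). In whole libraries Lhx1 rose from 6.08 to 18.5 CPM (log2 fold change 1.51, edgeR adjusted p = 0.00466), and that call was lost when any 1 library other than Tet-TKO library 2 was left out.

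From E7.5 to E8.5 most members fell. In sums over all kept cells, with genotype as a term, Tdgf1 fell from 187 and 27.2 CPM (Tet-TKO and WT host) at E7.5 to between 0.899 and 4.19 CPM at E8.5, a log2 fold change of -5.45 (edgeR adjusted p = 0.00162). Nodal fell from 12.6 and 5.40 to between 0.875 and 2.11 CPM (-2.54, edgeR adjusted p = 0.00153). Cer1 fell from 7.25 and 27.0 to between 0.568 and 1.62 CPM (-3.73, edgeR adjusted p = 0.00246), and Lefty2 from 10.0 and 19.3 to between 1.60 and 4.30 CPM (-2.51, edgeR adjusted p = 0.00274). For these 4 genes all 6 E8.5 libraries lay below both E7.5 libraries. The same held for genes such as Fst, Tgif1 and Pmepa1 that were not called for stage. The share of all genes separated in this way is not given here. Lefty1 (1.31 and 1.68 CPM, then 0.346 to 1.81) and Foxh1 (2.77 and 1.88, then 0.545 to 1.98) were not called, at -0.25 and -1.09.

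Thus 4 of 6 members were called lower at E8.5, against 2.30% of all genes, with a median of -2.52 against 0.036 over all genes. Of the 24 further pathway genes 22 were tested, with a median of -0.56. Mixl1 (-3.15), Gdf3 (-2.68), Eomes (-5.89), Lhx1 (-2.004) and Gsc (-2.27) fell, all but Gdf3 being transcription factors of the streak, and Inhba (1.995), an activin subunit, rose, where 3.56% of all genes were called higher. Whole libraries do not tell fewer cells of a type from less RNA per cell. With only 1 E7.5 library per genotype these calls lean on both, with 0 of 6 members called without the Tet-TKO one and 2, Nodal and Tdgf1, without the WT host one, while the fold changes of the 4 stayed negative, from -1.96 to -6.34.

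**Figure D5:**
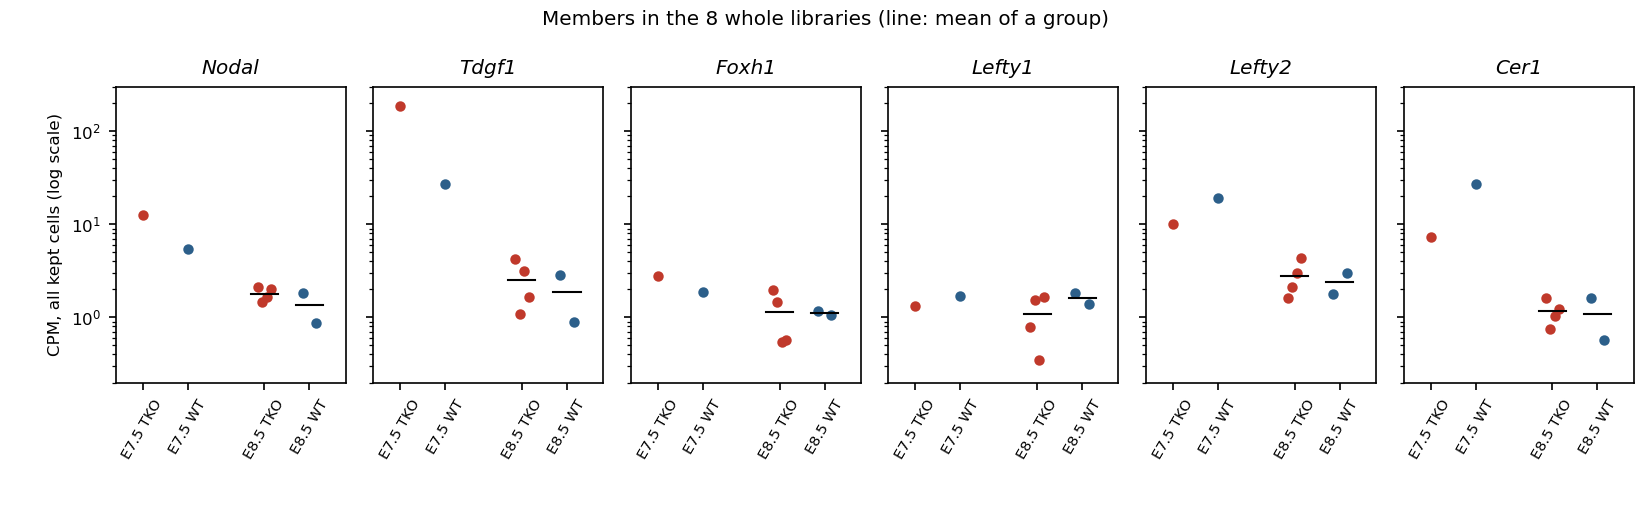
CPM (log scale) of the 6 members over all kept cells of the 8 libraries, by stage and genotype (Tet-TKO red, WT host blue). Points are libraries and lines are the means of the E8.5 groups. For Nodal, Tdgf1, Lefty2 and Cer1 every E8.5 point lies below both E7.5 points, whereas Lefty1 overlaps between stages. The share of all genes separated in this way is not given here.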

How the data were processed

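Cells of the 8 libraries were profiled with 10x Genomics 3′ v3 chemistry. The authors mapped reads to mm10 with Cell Ranger (3.1.0 in the file header, while the paper names another version) and the GRCm38.92 annotation with the tdTomato sequence added. They deposited unnormalised counts, that is, whole numbers of UMIs for each gene in each barcode.

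Cells were kept from 1500 UMIs on, if no more than 30% of these were mitochondrial and no more than 35% ribosomal. Each stage was clustered in scanpy 1.11.5 (Python 3.11.15) from 2500 variable genes without the pathway genes, with 50 principal components, correction by 20 mutual nearest neighbours, 15 graph neighbours and Leiden resolution 2 (leidenalg 0.10.2). A cluster was named from at least 3 raised markers and otherwise keeps its number. Likely doublets by Scrublet (the top 0.8% for every 1000 barcodes) were removed in an alternative only.

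Counts were summed per cell group and library (at least 10 cells) and tested at E8.5 with edgeR 4.0.16 in R 4.3.3 (TMM, filterByExpr, glmQLFit, glmQLFTest) in each group with at least 2 libraries per genotype, and for stage over all 8 libraries with genotype as a term. P-values are two-sided and adjusted by Benjamini and Hochberg over all genes tested in a fit. A gene was called where its adjusted p was at most 0.01 and its log2 fold change at least 1 either way. CPM were computed within each such sum. At E7.5 no test was made. CPM have exact Poisson intervals, shares exact binomial (Clopper-Pearson) intervals and ratios exact conditional intervals, all at 95% and for counting error only. A count of 0 was given the value of 3 UMIs as a bound.

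On simulated sums with 200 genes changed by a log2 fold of 2, edgeR recovered 69.5% in node and notochord-like cells (4897 genes), 75.5% in E8.5 cluster 2 (12045), 85.0% in cardiomyocyte-like cells (10377), 86.0% in somitic and paraxial mesoderm-like cells (10019) and 58.0% in whole libraries (21075). False calls numbered 2, 2, 1, 8 and 1 in the same order. The changed genes were drawn at random from those tested, so these shares do not give the recovery of the members, whose spread can be larger.

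The members and gene lists were chosen with earlier results of these data known. Named were the 6 members, at E8.5 in each group with a mean of at least 20 CPM in 1 genotype and at E7.5 in groups with at least 30 cells of both genotypes, the other pathway genes that passed a call or, at E7.5, a log2 ratio of 1 in epiblast, streak or mesoderm groups, and the 3 genes most like each member. Other groups and genes are named where a statement needed them, after their values were seen. Of 32 pathway genes 31 were measured, and 1 of these is not reported here. Gdf1, which overlaps Cers1, had 0 UMIs. Gene positions and the Lefty sequences are from GENCODE M21 and the GRCm38 genome, and promoters are from RefSeq. Alternatives were DESeq2 1.42.0, its size factors, no filter on low counts, no minimum fold, a replicate block, summed Tet-TKO libraries, resolution 1, no marked doublets, a minimum of 3000 UMIs or 30 cells, tdTomato-matched cells, cells thinned to 5000 UMIs, and each library left out. Ratios within clusters, counts over all groups with both genotypes, without visceral endoderm-like cells and without E8.5 cluster 33 were added after seeing the data.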

Additional observations from a re-analysis of the deposited data

Results flagged for a closer look

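Among 11 sets of 4 E8.5 Tet-TKO libraries tested for a sample far from the others, 1 was marked, and chance marks about 1 set in 20. It was Lefty1 in E8.5 cluster 33, at 60.1 CPM (14 UMIs) in Tet-TKO library 2 and 0 in the other 3 Tet-TKO libraries. WT host library 2 was at 134 CPM (54 UMIs) and WT host library 1 at 0. The cells of this cluster hold few UMIs, a median of 0.18 times that of their own libraries.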

How the results depend on the processing

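The count of E8.5 member calls stayed at 0 with DESeq2, its size factors and the other thresholds and cell choices, but not with a replicate block or without a filter on low counts. The latter gave 4 (Lefty2 in cluster 16, cluster 5 and pharyngeal mesoderm-like cells at -1.22, -2.10 and -4.77, Lefty1 in cluster 33 at -2.82), all lower in Tet-TKO. The number of pairs tested and the share of all genes called without the filter are not given here, so these 4 have no background beside them. Leaving out 1 library gave 0 to 1, the call being Tdgf1 in epiblast-like cells without Tet-TKO library 1, where the Tet-TKO side was 1 library at 0 UMIs, assumed to vary as the others. The cause was not tested. At E7.5, 23 ratios past a log2 of 1 became 11 in cells thinned to 5000 UMIs, where 19 in place of 38 pairs had enough UMIs. Stage calls, 4 of 6, ranged from 0 to 4 when 1 library was left out.

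Libraries 1 and 2 of each genotype share numbers that the labels do not tie to a common pool, though the paper speaks of matching WT hosts. Their deviations correlated at 0.48 over 9313 genes, with 2 pairs. A fit with the replicate block, on these 4 libraries, called 4 pairs of a member and a group in place of 0. These were Lefty2 in cluster 2 (-1.67) and, higher in Tet-TKO, Tdgf1 in cluster 16 (2.37), Cer1 in definitive endoderm and gut-like cells (1.56) and Lefty1 in spinal cord-like cells (1.23). The number of pairs tested and the share of all genes called with the block are not given here, so these calls cannot be weighed against a background.

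Estimates near 0 changed sign in places. With marked doublets removed, Tdgf1 in cardiomyocyte-like cells was at 0.076 and whole-library Foxh1 at -0.030. In tdTomato-matched cells, Lefty1 in cluster 38 was at 0.12 and whole-library Foxh1 and Cer1 at -0.0086 and -0.018. Tdgf1 in E8.5 epiblast-like cells was at 0.057 with DESeq2, 0.057 without a filter, 0.058 with the replicate block and 0.99 at resolution 1. Whole-library Lefty2 was at -0.30 with the replicate block, and E7.5 epiblast-like Lefty1 at 0.57 at resolution 1. Leaving out 1 library moved E8.5 log2 fold changes over ranges that crossed 0, namely -0.45 to 0.41 for Tdgf1 in cardiomyocyte-like cells, -8.41 to 9.02 for Tdgf1 in epiblast-like cells, -1.61 to 8.12 for Lefty1 in cluster 38, -2.59 to 2.12 for Nodal in node and notochord-like cells and -0.52 to 1.38 for Cer1 in somitic and paraxial mesoderm-like cells. In whole libraries the ranges were -0.096 to 0.93 for Nodal, -0.22 to 1.39 for Tdgf1, -0.44 to 0.26 for Foxh1, -0.26 to 0.54 for Lefty2 and -0.54 to 0.92 for Cer1. Lefty2 in cluster 2 stayed negative when 1 library was left out, from -1.43 to -0.61. At E8.5 each member passed the filter on low counts in only 3 to 6 of 35 groups, and the part of depth in this was not tested.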

Other observations

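Over 215 sums of a cell group in a library, the genes whose level was most like each member were named by Pearson r of log2(CPM + 10) among 14562 genes. The sums share libraries and depth, so r is a description. Tdgf1 was most like Eomes (0.84), the streak T-box factor, then Fgf5 and Vrtn (0.78 each). Nodal was most like Samd3 (0.71), Dmkn (0.69) and Efcab10 (0.68), and Efcab10 leads the node and notochord-like cells at resolution 1 together with cilium genes such as Foxj1. Lefty2 was most like Lhx1 (0.63), Mesp2 (0.62) and Rimbp2 (0.59). Lower values were found for Foxh1 with Mesp1 (0.58), Sowahd and Sycp3 (0.56 each), for Cer1 with Eda (0.55), Ptgds (0.54) and Samd3 (0.53), and for Lefty1 with Gm44235 (0.54), Olfml2a (0.49) and Gm19427 (0.48). Among the members r was 0.56 for Tdgf1 and Lefty2 and 0.046 for Lefty1 and Lefty2, the neighbouring copies.

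At E7.5 Nodal was also found outside epiblast, streak and endoderm. Surface ectoderm-like cells had 22.9 CPM in Tet-TKO (82 UMIs) and 1.51 CPM in WT host (3 UMIs), a log2 ratio of 3.92 (2.32 to 6.23). Primordial germ cell-like cells had 11.6 CPM (48 UMIs) and 0.812 CPM (2 UMIs), a log2 ratio of 3.83 (1.90 to 6.92).

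In the Osr1-led E8.5 cluster 16 a Lefty2 UMI was held by 33.3% of 21, 12.5% of 16, 100% of 3 and 0 of 1 Nodal-positive cells in Tet-TKO libraries 1 to 4 and by 46.2% of 13 and 57.1% of 7 in the host libraries, beside 5.53%, 3.85%, 1.33%, 0 of 24, 10.3% and 4.69% of the other cells.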
